A study of Homo sapiens with 120 samples.

Results

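Glucose uptake, glycolysis and the low-oxygen response were followed through 10 genes: the glucose transporters SLC2A1 and SLC2A3, the hexokinase HK2, the regulatory enzymes PFKFB3 and PFKFB4, the lower glycolytic enzymes PGK1, ENO1 and LDHA, the pyruvate dehydrogenase kinase PDK1 and the carbonic anhydrase CA9. They were taken by gene name, from a list drawn up with earlier results of these data known, and all 10 of 10 were found among the 57665 genes of the deposited tables and passed the filter on low counts that left 26998 genes. The cells were U2OS, a human osteosarcoma line, as the Parental line and as a line made from it, Dmr-PERK. Dmr-PERK cells stably carry a fusion of the mouse PERK kinase domain with DmrB, a domain that a small ligand brings together in pairs, so that the ligand switches the kinase on and eIF2α becomes phosphorylated. Whether this line is 1 clone was not given in the sources used here. Each line was left untreated or given the ligand AP20187 (dimerizer, 195 pM), thapsigargin (100 nM), which empties the calcium store of the endoplasmic reticulum, or sodium arsenite (0.05 mM), an oxidant. Treatments ran for 2, 4, 8, 16 or 24 h, untreated wells were taken at 0, 4, 8, 16 and 24 h, with 3 wells in each of the 40 groups, 120 libraries in all. No group was kept at low oxygen, per the labels' growth protocol.

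SLC2A1 (GLUT1) and SLC2A3 (GLUT3) carry glucose across the plasma membrane, and hexokinase traps it in the cell as glucose 6-phosphate. PFKFB3 and PFKFB4 set the amount of fructose 2,6-bisphosphate, the strongest activator of phosphofructokinase. PGK1 and ENO1 catalyse later steps of glycolysis, LDHA turns pyruvate into lactate, and PDK1 inhibits pyruvate dehydrogenase in mitochondria by phosphorylating it. All 10 are textbook targets of the hypoxia-inducible factors (HIF), and CA9, an enzyme of the cell surface that takes part in pH control, is among the genes that depend on HIF most. The integrated stress response, by contrast, runs through eIF2α phosphorylation and the transcription factor ATF4.

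HIF binds a short core, ACGTG or GCGTG, and this core was looked for in the 250 bases before each RefSeq transcription start (build GRCh38.p14) on both strands. Windows were found for 9 of the 10 genes, 13 windows in all; SLC2A3 was not among them. By RefSeq coordinates the upper pathway genes are SLC2A1 (ENSG00000117394.19, chromosome 1, 42925353 to 42958868), SLC2A3 (ENSG00000059804.15, chromosome 12, 7919230 to 7936187), HK2 (ENSG00000159399.9, chromosome 2, 74834127 to 74893359), PFKFB3 (ENSG00000170525.18, chromosome 10, 6144921 to 6326637) and PFKFB4 (ENSG00000114268.11, chromosome 3, 48517684 to 48563136). The others are PGK1 (ENSG00000102144.13, chromosome X, 78104248 to 78129295), ENO1 (ENSG00000074800.13, chromosome 1, 8861000 to 8878686), LDHA (ENSG00000134333.13, chromosome 11, 18394563 to 18408425), PDK1 (ENSG00000152256.13, chromosome 2, 172555373 to 172724312) and CA9 (ENSG00000107159.12, chromosome 9, 35673928 to 35681159). A core lay in 11 of the 13 windows, of 8 genes, against 43.2% of 35116 windows of the same length over all genes. The stretches shown are those of the 2 genes that went up with dimerizer (HK2 and PDK1), of 3 that went down with it (LDHA, PGK1 and PFKFB4) and of CA9, so that the letters can be compared between genes that moved in opposite directions. They are written 5′ to 3′ in the direction of the gene, and capitals mark the core or its complement (CACGT or CACGC); where the core is part of an E-box, CACGTG, all 6 letters are in capitals, and that E-box lies in 6.34% of the windows.
HK2, chr2:74833888-74834093, plus strand: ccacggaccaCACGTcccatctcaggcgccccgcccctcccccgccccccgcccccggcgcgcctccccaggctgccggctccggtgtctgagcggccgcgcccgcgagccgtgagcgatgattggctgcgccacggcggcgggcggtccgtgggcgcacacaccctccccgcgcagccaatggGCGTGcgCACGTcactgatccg
PDK1, chr2:172556063-172556089, plus strand: tgctgcccgcCACGTccctCACGTacc
LDHA, chr11:18394368-18394504, plus strand: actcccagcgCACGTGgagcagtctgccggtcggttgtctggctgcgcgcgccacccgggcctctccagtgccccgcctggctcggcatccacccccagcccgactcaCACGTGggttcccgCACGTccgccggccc
PGK1, chrX:78104027-78104079, plus strand: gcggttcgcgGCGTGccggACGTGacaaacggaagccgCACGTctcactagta
PFKFB4, chr3:48556955-48556979, minus strand: agttgggcatGCGTGgtcggaggcc
CA9, chr9:35673900-35673924, plus strand: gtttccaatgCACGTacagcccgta
Among the genes shown, which were chosen by their response, the core was present in genes that rose and in genes that fell. SLC2A1, which also fell, had no core in its window. The PDK1 window from 172555123 to 172555422 had none either. Whether the core bears on the direction of change was not tested. CACGTG, shown above in LDHA alone, also lies in the second RefSeq windows of HK2 (2 matches, in the window from 74834920 to 74835219) and PFKFB3 (1 match), which are not printed. The letters TGATGNAA (a composite ATF4 and C/EBP element, in 3.14% of the windows) and TGACNNNGC (an NRF2 element, in 10.9%) were in none of the 13 windows, which says only that these letters are not there. A match is a description of the sequence, not a measured binding site.

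Library totals of estimated counts ran from 1.29e+07 to 5.65e+07 with a median of 2.23e+07. The mesenchymal genes COL1A1 and VIM were high in every library, as were the keratins KRT8 and KRT18. Over all libraries 5 of 8 osteoblast and mesenchymal and 5 of 6 epithelial markers had a mean above 1 CPM (counts per 1e+06 counts). Of the others, 1 of 4 endothelial and 0 of 6 blood markers did. The osteoblast genes SP7, IBSP and BGLAP were low on average. From 4 h on, 6 of the 8 osteoblast and mesenchymal markers had a mean above 1 CPM with arsenite in each line, against 4 untreated. Dimerizer raised ASNS, an ATF4 target, by 2.32 ± 0.02 on the log2 scale in Dmr-PERK cells and did not change it detectably in Parental cells (0.06 ± 0.02, edgeR adjusted p = 0.22); the ± beside a log2 value is its standard error from the fit throughout. Replicate 3 of Parental arsenite at 24 h lay 3.13 times as far from its 2 replicates as those lay from each other, and replicate 3 of Dmr-PERK arsenite at 4 h lay 1.43 times as far; values that rest on them are given with and without them. The labels name no separate cultures behind the 3 wells of each group, so p-values rest on a spread among wells that may be only technical. In cultures a lower share of an RNA can mean fewer cells that make it or less of it per cell, and these cannot be told apart.

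Untreated cells gave the starting levels. On the TPM scale, which divides by transcript length, the order in Dmr-PERK cells was ENO1 (2236 ± 175 TPM, SD over 15 libraries), LDHA (1443 ± 108), PGK1 (418.0 ± 36.3), SLC2A1 (167.9 ± 34.4), PFKFB3 (29.8 ± 9.89), SLC2A3 (26.6 ± 9.71), HK2 (14.9 ± 5.81), PFKFB4 (8.23 ± 1.51), PDK1 (7.48 ± 1.49) and CA9 (0.700 ± 0.429). The steps between ENO1, LDHA, PGK1, SLC2A1 and PFKFB3 were wider than the spread, while PFKFB3 and SLC2A3 differed by less than their SDs, as did PFKFB4 and PDK1. The order was the same in Parental cells, from ENO1 at 1908 ± 201 TPM to CA9 at 0.211 ± 0.183. CA9 was close to absent: its 15 untreated libraries summed to 99 counts in Dmr-PERK and 27 in Parental cells, so its fold changes are imprecise.

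Levels drifted in untreated wells over the day, and not all in 1 direction. In Parental cells SLC2A3 fell from 83.9, 92.1 and 90.9 CPM at 0 h to 38.0, 33.9 and 37.7 CPM at 24 h, and PFKFB3 from 93.3, 100.1 and 104.2 to 36.0, 38.0 and 34.6 CPM. HK2 was highest at 4 h (85.4, 76.9 and 75.6 CPM) and lowest at 24 h (22.9, 20.3 and 20.7 CPM). The groups at 0 and 24 h did not overlap for any of these 3 genes. For this and every later statement on overlap, the share of all genes without overlap was not counted. ENO1 moved the other way, from 1768, 1717 and 1803 CPM at 0 h to 2434, 2409 and 2347 CPM at 16 h, with 2081, 2184 and 1983 CPM at 24 h, and PFKFB4 had a mean of 8.01 CPM at 0 h and 10.4 CPM at 24 h. By edgeR's F-test over the 5 times 9 of 10 genes changed in Dmr-PERK cells, all but CA9, where 53.4% of all genes did, and 8 of 10 in Parental cells, all but PDK1 and CA9, where 55.4% did. Because of this drift each treatment from 4 h on was set against untreated wells of the same time.

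All 10 genes were higher in untreated Dmr-PERK than in untreated Parental cells over the 5 times, where 30.3% of all genes were called higher. PDK1 stood at 17.6, 17.8 and 15.3 CPM in Dmr-PERK and at 9.05, 11.6 and 9.60 CPM in Parental cells at 8 h, and its mean difference was 0.65 ± 0.03 (log2; edgeR adjusted p = 8.5e-33). SLC2A1 stood at 185.7, 179.7 and 183.5 against 120.9, 112.6 and 114.5 CPM at that time, and its mean difference was 0.41 ± 0.02. The differences of the other genes were 0.41 ± 0.03 for PFKFB4, 0.33 ± 0.01 for LDHA, 0.32 ± 0.04 for HK2, 0.25 ± 0.01 for ENO1, 0.25 ± 0.03 for PFKFB3, 0.19 ± 0.04 for SLC2A3 and 0.17 ± 0.01 for PGK1. The median over the 10 genes was 0.33, against -0.03 over all genes tested. CA9 was called as well, at the low counts given above.

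The line difference was steady for some genes and not for others. LDHA differed by between 0.30 ± 0.03 and 0.36 ± 0.03 at each of the 5 times and PGK1 by between 0.13 ± 0.03 and 0.21 ± 0.03. HK2 differed at 8 h (0.56 ± 0.09) and 16 h (0.66 ± 0.09) but not detectably at 0, 4 and 24 h (0.13 ± 0.09, 0.13 ± 0.08 and 0.13 ± 0.11), and SLC2A3 differed at 4 h (0.24 ± 0.08; 0.22, adjusted p = 0.092, without replicate 2 of every group) and 8 h (0.63 ± 0.09). An F-test of the change over time called SLC2A1, SLC2A3, HK2, PFKFB3 and PDK1, 5 of 10 genes, where 17.9% of all genes were called; without replicate 2 of every group it called 2 of 10, and limma on log2(TPM + 1) called 3. At single times 7 genes were called higher at 0 h, 9 at 4 h, 10 at 8 h, 9 at 16 h and 8 at 24 h, where 20.9%, 21.0%, 20.7%, 21.3% and 21.0% of all genes were.

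**Figure D1:**
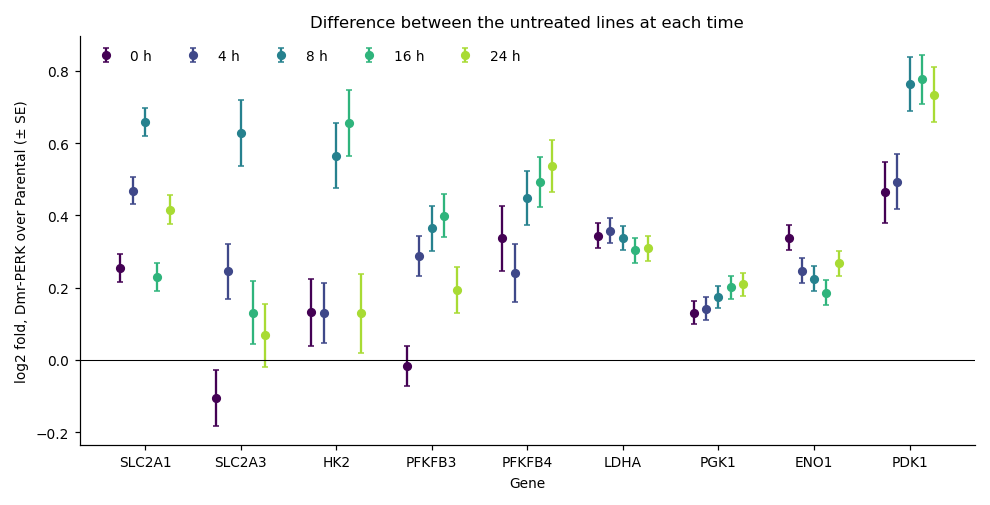
Log2 difference between untreated Dmr-PERK and untreated Parental wells for each gene but CA9 (vertical axis, points with the standard error of the fit) at each of the 5 times (colours). The points of LDHA, PGK1 and ENO1 stay together, while those of SLC2A3, HK2 and SLC2A1 spread, with the highest SLC2A3 difference at 8 h (0.63) and the lowest at 0 h (-0.11).

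Dimerizer in Dmr-PERK cells, which asks what kinase activation alone does to these genes, split them. Over 4 to 24 h HK2 and PDK1 rose, 6 genes fell (SLC2A1, SLC2A3, PFKFB4, LDHA, PGK1 and CA9), and the means of PFKFB3 (0.05 ± 0.03) and ENO1 (0.00 ± 0.02) did not pass. The call of CA9 (-0.94 ± 0.40, adjusted p = 0.013) was lost without replicate 1 (-1.02, adjusted p = 0.056) or replicate 2 (-0.62, adjusted p = 0.27) of every group and by limma on log2(TPM + 1) (adjusted p = 0.097). Of all genes 27.5% were called higher and 27.7% lower. The median over the 10 genes was -0.19, against -0.03 over all genes.

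HK2 had the highest rise. At 24 h it was at 113.2, 110.3 and 104.3 CPM with dimerizer and at 24.0, 23.8 and 22.6 CPM untreated. At 4 h the values were 145.1, 146.2 and 143.0 against 88.8, 84.1 and 88.6 CPM. Every treated well from 4 h on lay above every untreated well of its time, by 0.73 ± 0.08 at 4 h and 2.22 ± 0.10 at 24 h on the log2 scale, and the mean over the 4 times was 1.35 ± 0.04 (edgeR adjusted p = 2.6e-49). The treated level itself fell with time; the untreated level fell further. At 2 h HK2 was lower than in untreated wells at 0 h, with 50.1, 34.1 and 34.1 against 65.0, 56.3 and 54.7 CPM (-0.57 ± 0.09, adjusted p = 1.3e-06), a comparison across different times since no untreated wells were collected at 2 h. Against untreated wells at 4 h the 2 h value was lower still (-1.14). With that control HK2 was also lower at 2 h of dimerizer in Parental cells, which have no construct (-0.63, edgeR adjusted p = 1.8e-09). Against 0 h it was not called there (-0.06).

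PDK1, the kinase that inhibits pyruvate dehydrogenase, rose from 4 h on. Its values at 16 h were 30.3, 27.6 and 31.8 CPM with dimerizer and 17.1, 16.2 and 15.7 CPM untreated, with no overlap. The difference was 0.67 ± 0.07 at 4 h and 0.98 ± 0.07 at 24 h, and 0.81 ± 0.03 over the 4 times (edgeR adjusted p = 1.4e-41). At 2 h it did not differ detectably (0.06 ± 0.08).

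PFKFB4 had the deepest mean fall over 4 to 24 h; at 16 h alone the fitted fall of CA9, on few counts, was deeper (-2.32 ± 1.22). PFKFB4 went from 13.4, 14.2 and 12.5 CPM untreated to 4.79, 4.61 and 4.56 CPM with dimerizer at 16 h, a log2 difference of -1.52 ± 0.10, and its mean over 4 to 24 h was -1.09 ± 0.04 (edgeR adjusted p = 1.0e-41). At 2 h it was instead higher than at 0 h untreated (0.35 ± 0.08, adjusted p = 0.00054). PFKFB3, its relative with the higher kinase activity, had a mean near 0 over which its effect changed sign. It was lower at 4 h (80.7, 78.5 and 79.8 against 99.9, 97.1 and 91.1 CPM, -0.27 ± 0.06) and higher at 24 h (57.2, 60.7 and 58.6 against 40.5, 42.7 and 41.0 CPM, 0.51 ± 0.06), with no overlap at either time. The lower value at 4 h was not particular to this line: PFKFB3 was also lower with dimerizer in Parental cells at 4 h (-0.46). At 24 h it was not called there.

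The enzymes of the lower pathway did not move together. LDHA fell further at each later time, from -0.43 ± 0.03 at 4 h to -0.92 ± 0.03 at 24 h. At 24 h it was at 611.3, 633.8 and 631.6 CPM with dimerizer and at 1186, 1161 and 1210 CPM untreated. PGK1 fell to 302.7, 325.7 and 302.0 CPM at 24 h, where untreated wells held 462.8, 462.4 and 483.2 CPM (-0.60 ± 0.03). ENO1, the next enzyme but one after PGK1, was lower at 4 h (1988, 1951 and 2055 against 2365, 2383 and 2289 CPM, -0.23 ± 0.03) and higher at 24 h (2875, 2949 and 2931 against 2527, 2455 and 2533 CPM, 0.22 ± 0.03). None of these groups overlapped.

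The transporters changed little by comparison. SLC2A1 was at 133.0, 135.7 and 141.9 CPM with dimerizer and at 185.7, 179.7 and 183.5 CPM untreated at 8 h (-0.42 ± 0.04), and at 104.5, 107.2 and 102.5 against 114.8, 119.1 and 113.7 CPM at 24 h (-0.14 ± 0.04). The mean of SLC2A3 passed the threshold (-0.12 ± 0.04, adjusted p = 0.018), but none of its single times did, and without replicate 2 of every group the mean did not (-0.11, adjusted p = 0.11). Without the 2 libraries that stood apart the 4 h and 24 h values of SLC2A3 passed (-0.17 each, adjusted p = 0.010 and 0.030). CA9 had 2 counts in 3 wells with dimerizer at 16 h and 6 at 24 h, where untreated wells had 13 and 21. An F-test of the change of effect between 4 and 24 h called 8 of the 10 genes, all but SLC2A3 and CA9, where 42.1% of all genes were called.

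**Figure D2:**
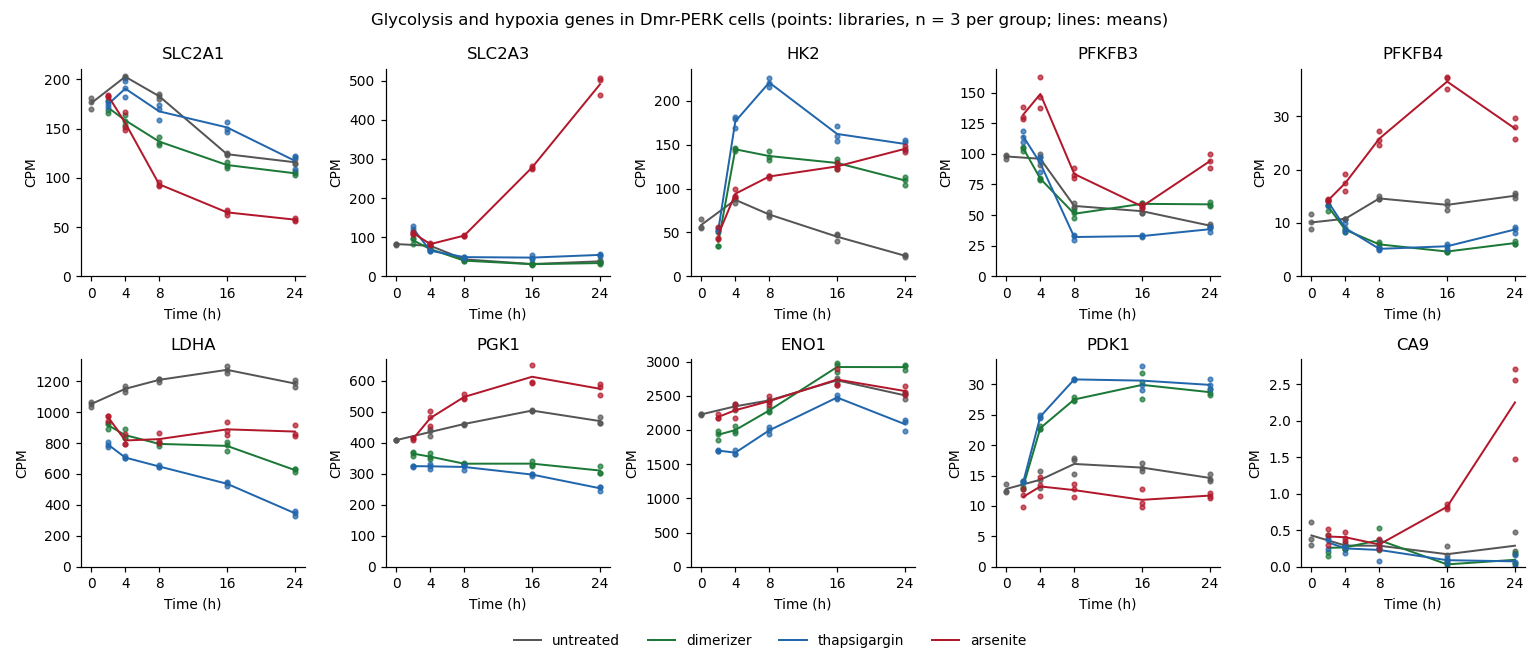
CPM (vertical axis, linear, from 0) of each gene in Dmr-PERK cells against time in hours; points are single libraries, lines join group means of 3, and colours mark untreated wells and the 3 treatments. HK2 and PDK1 run above the untreated line with dimerizer and thapsigargin and LDHA and PGK1 below it, while SLC2A3 climbs with arsenite, to 490.3 CPM at 24 h.

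Dimerizer was given to Parental cells, which have no construct, to see what the ligand does by itself. Over 4 to 24 h SLC2A1 was called, with a small difference (-0.09 ± 0.02, edgeR adjusted p = 0.010), and the other 9 genes were not, where 0.256% of all genes were called lower and 0.326% higher (69 and 88 genes; 103 and 234 by DESeq2). The SLC2A1 call was lost without replicate 1 (-0.08, adjusted p = 0.21) or replicate 2 (-0.09, adjusted p = 0.40) of every group and by limma on log2(TPM + 1). HK2 was at 22.7, 22.9 and 24.1 CPM with dimerizer at 24 h and at 22.9, 20.3 and 20.7 CPM without, so that the groups overlapped, and PDK1 at 9.27, 9.17 and 9.61 against 8.19, 9.48 and 8.92 CPM overlapped too. The 4 h wells were different: SLC2A3 was at 46.0, 46.1 and 50.1 against 65.9, 64.7 and 67.0 CPM (-0.47 ± 0.08), PFKFB3 at 60.1, 55.7 and 56.3 against 81.4, 80.4 and 73.8 CPM (-0.46 ± 0.06) and SLC2A1 at 122.5, 120.4 and 117.8 against 155.1, 143.2 and 140.6 CPM (-0.29 ± 0.04). These 3 of 10 genes were called lower at 4 h, where 3.73% of all genes were, and none at 2, 8, 16 or 24 h, where at most 0.178% of all genes were called. Of the 40 tests of these genes at those 4 times edgeR gave 4 with an unadjusted p under 0.05, and DESeq2 called 0. The F-test of the change of effect called the same 3 genes, where 3.76% of all genes were called. In untreated wells the means of all 3 were lower at 8 h than at 4 h, as was that of HK2, which was not called.

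The difference between the lines in the effect of dimerizer was tested as an interaction. It was called for 7 of 10 genes, where 47.0% of all genes were: HK2 (1.36 ± 0.07), PDK1 (0.74 ± 0.05), PFKFB3 (0.14 ± 0.04; 0.13, adjusted p = 0.091, without replicate 2 of every group), SLC2A1 (-0.18 ± 0.03), PGK1 (-0.49 ± 0.02), LDHA (-0.67 ± 0.02) and PFKFB4 (-1.03 ± 0.06). It did not pass for SLC2A3 (-0.08 ± 0.06, adjusted p = 0.29), while a fit of only the groups compared called it (-0.10, adjusted p = 0.030). The mean effect on PFKFB3 was called in neither line by itself. In Parental cells PFKFB3 was called at 4 h alone, where it was lower (-0.46).

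**Figure D3:**
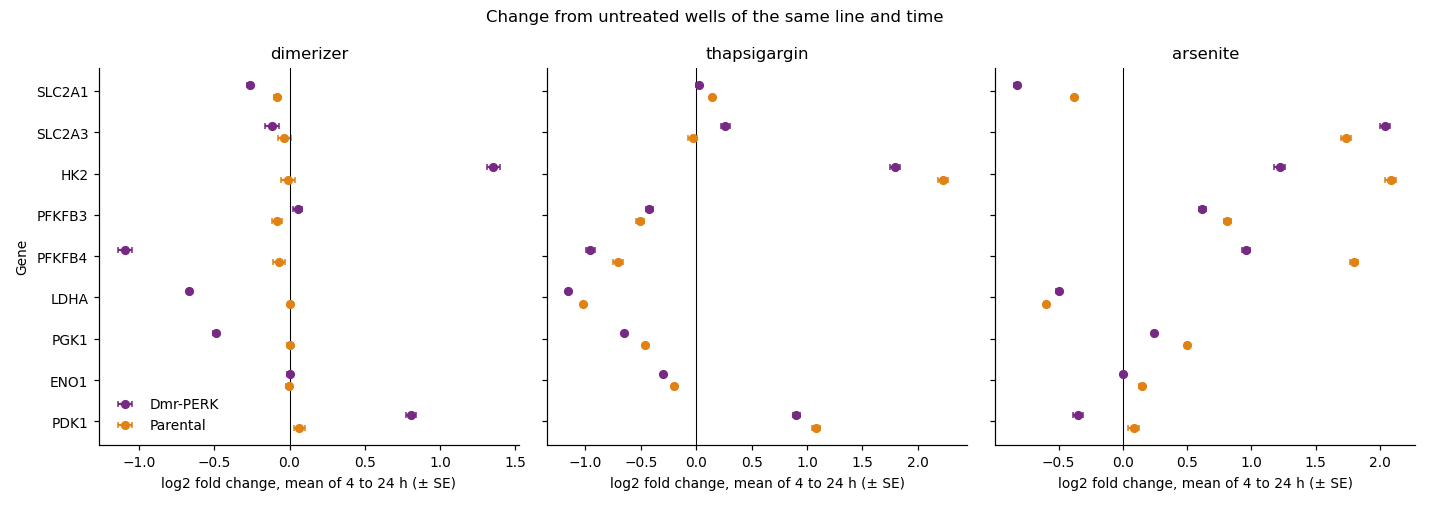
Log2 fold change against untreated wells of the same line, mean of 4, 8, 16 and 24 h, for each gene but CA9 (points, with the standard error of the fit) in Dmr-PERK and Parental cells; 1 panel per treatment. With dimerizer the Parental points lie at 0 or close to it, within 0.09, while with thapsigargin and arsenite both lines move in the same direction for most genes.

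Thapsigargin acts in both lines and does not need the construct. HK2 rose in both and LDHA, PGK1, PFKFB4, PFKFB3 and ENO1 fell in both, with PDK1 up in both. In Dmr-PERK cells 3 genes were called higher, SLC2A3 among them, and 6 lower, CA9 among them, where 30.9% and 32.2% of all genes were; in Parental cells 3 were higher, SLC2A1 among them (0.14 ± 0.02), and 5 lower, where 30.1% and 35.0% were. The CA9 call in Dmr-PERK cells was lost without replicate 2 of every group (-0.55, adjusted p = 0.24).

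HK2 reached 220.2, 216.0 and 226.6 CPM in Dmr-PERK cells at 8 h, against 73.4, 70.2 and 67.8 CPM untreated. In Parental cells it reached 259.8, 254.3 and 265.6 against 49.5, 46.3 and 47.4 CPM. The mean difference was 1.80 ± 0.04 in Dmr-PERK and 2.23 ± 0.04 in Parental cells (edgeR adjusted p = 1.1e-60 and 7.2e-69), and the interaction of -0.43 ± 0.06 was called. Treated wells of the 2 lines ended close to each other at 24 h, at 152.8, 155.8 and 144.3 and at 141.6, 132.3 and 141.5 CPM.

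LDHA fell at every time in both lines. By 24 h it was at 361.6, 349.3 and 328.0 CPM in Dmr-PERK cells, where untreated wells held 1186, 1161 and 1210 CPM, and at 323.8, 327.6 and 307.0 CPM in Parental cells, where they held 963.6, 992.5 and 914.4 CPM. The log2 differences were -1.78 ± 0.03 and -1.58 ± 0.03. PGK1 at 24 h differed by -0.89 ± 0.03 and -0.70 ± 0.03. Both were already lower at 2 h, LDHA by -0.42 ± 0.03 in Dmr-PERK and -0.31 ± 0.03 in Parental cells.

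PDK1 rose by 0.90 ± 0.03 in Dmr-PERK and 1.08 ± 0.03 in Parental cells over 4 to 24 h. In Parental cells it went from 8.19, 9.48 and 8.92 to 23.5, 21.7 and 21.7 CPM at 24 h. PFKFB4 was lowest at 8 h, at 5.09, 5.37 and 4.98 CPM in Dmr-PERK and 4.11, 4.45 and 4.09 CPM in Parental cells, a fall of 1.51 and 1.33 on the log2 scale, and partly recovered by 24 h (-0.80 ± 0.08 and -0.39 ± 0.08). As with dimerizer it was higher at 2 h in both lines (0.46 ± 0.07 and 0.41 ± 0.09 against 0 h). PFKFB3 at 8 h fell by 0.84 in Dmr-PERK and 0.91 in Parental cells, after a higher value at 2 h.

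SLC2A3 went up and down. At 2 h it stood at 113.0, 120.7 and 129.8 CPM in Dmr-PERK and at 135.5, 138.5 and 145.8 CPM in Parental cells, above the 0 h untreated wells of both lines (80.8 to 83.2 and 83.9 to 92.1 CPM). At 16 h it was higher than untreated in Dmr-PERK (0.61 ± 0.09) but not in Parental cells (-0.19 ± 0.09, adjusted p = 0.057; -0.20, adjusted p = 0.0082, without the 2 libraries that stood apart). The mean over 4 to 24 h was called in Dmr-PERK cells only (0.26 ± 0.04, against -0.03 ± 0.04), and the interaction was called (0.30 ± 0.06). The effect changed between 4 and 24 h for 8 genes in Dmr-PERK and 9 in Parental cells, where 52.2% and 49.9% of all genes did. The interaction was called for 8 of 10 genes in all, where 25.7% of all genes were (3054 positive and 3885 negative; 4010 and 3040 without scaling factors), and did not pass for PFKFB3 and CA9. By limma on log2(TPM + 1) 6 were called: SLC2A1 (-0.03, adjusted p = 0.72), PFKFB4 (-0.05, adjusted p = 0.79) and PDK1 (-0.16, adjusted p = 0.32) lost the calls they had by edgeR (-0.12 ± 0.03, -0.25 ± 0.06 and -0.18 ± 0.05), and CA9 gained one (-0.42, adjusted p = 0.0245). PDK1 also lost it without replicate 1 of every group (-0.12, adjusted p = 0.13), and ENO1 (-0.09 ± 0.02) without the filter on low counts (-0.07, adjusted p = 0.076). CA9 had a count of 0 in all 3 Parental wells at 24 h, which allows up to 0.0446 CPM; this limit and all count limits cover counting error only.

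Arsenite raised more of these genes than the other treatments did, and it raised more of all genes as well. In Dmr-PERK cells 6 genes rose (SLC2A3, HK2, PFKFB3, PFKFB4, PGK1 and CA9) and 3 fell (SLC2A1, LDHA and PDK1), where 44.4% and 39.2% of all genes did. In Parental cells 7 rose, the same 6 and ENO1, and 2 fell, SLC2A1 and LDHA, where 42.7% and 39.4% did. Without replicate 3 of every group the CA9 call in Parental cells was lost (1.52, adjusted p = 0.066, against 2.20). The median over the 10 genes was 0.43 in Dmr-PERK and 0.66 in Parental cells, against 0.12 and 0.09 over all genes. The scaling matters here: TMM factors put the median of all genes at 0.12 in Dmr-PERK cells, RLE factors at 0.22 and library totals alone at -0.08 (0.09, 0.21 and -0.09 in Parental cells). ENO1 is inside that shift, with a mean in Parental cells of 0.15 ± 0.02 by TMM and -0.04 by library totals alone, and in Dmr-PERK cells of 0.00 ± 0.02 by TMM, 0.11 by RLE factors and -0.19 by library totals, all called but the first of these 3. The means of SLC2A3, HK2, PFKFB3, PFKFB4, PGK1, SLC2A1, LDHA and CA9 kept their direction under all 3 in both lines.

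Markers of other cell types moved with arsenite as well. All 4 endothelial markers were called higher in both lines, their summed level running from 3.79 to 32.6 CPM in the 12 Dmr-PERK arsenite libraries from 4 h on and from 1.33 to 3.34 CPM in the untreated ones (3.62 to 14.9 and 1.83 to 3.74 CPM in Parental cells), with none at 0. The 6 blood markers summed to between 0.701 and 16.6 CPM with arsenite and between 0.596 and 1.23 CPM without in Dmr-PERK cells, and to between 0.631 and 19.2 and between 0.481 and 1.5 CPM in Parental cells, led by the globin gene HBA1. The part of other cell types in the results for the 10 genes was not tested.

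SLC2A3, the transporter with the higher affinity for glucose, rose most at late times. At 2 h of arsenite it was already above untreated wells at 0 h, by 0.42 in Dmr-PERK and 0.51 in Parental cells (edgeR adjusted p = 4.7e-06 and 2.8e-08). In Dmr-PERK cells it was at 84.3, 82.9 and 79.8 CPM at 4 h, 103.5, 106.6 and 102.3 at 8 h, 282.3, 274.3 and 277.6 at 16 h and 506.9, 462.8 and 501.1 CPM at 24 h, when untreated wells held 37.9, 40.9 and 36.5 CPM. The log2 difference grew from 0.08 ± 0.08 at 4 h, which did not pass, to 3.67 ± 0.08 at 24 h (edgeR adjusted p = 2.1e-64). In Parental cells it was lower at 4 h (-0.31 ± 0.08; -0.25, adjusted p = 0.051, without replicate 1 of every group) and reached 342.0, 359.7 and 215.3 CPM at 24 h; the lowest of these is the library that stood apart. SLC2A1, the transporter that was more abundant in untreated cells, fell over the same hours, to 57.5, 59.1 and 56.2 CPM in Dmr-PERK cells at 24 h, against 114.8, 119.1 and 113.7 CPM untreated (-1.01 ± 0.04). Per length, SLC2A1 stood at 126.7 ± 2.68 and SLC2A3 at 20.0 ± 2.74 TPM in untreated Dmr-PERK wells at 24 h, and at 44.8 ± 2.50 and 189.3 ± 9.39 TPM with arsenite, so that the 2 transporters changed places.

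Counts of SLC2A3 may be shared with SLC2A14, a near-identical copy. SLC2A14 rose with arsenite too, from 1.26 ± 0.34 to 11.5 ± 4.04 CPM in Dmr-PERK and from 0.877 ± 0.394 to 4.81 ± 2.20 CPM in Parental cells (SD over 12 libraries). Its counts came to between 19.4% and 22.3% of those of SLC2A3 in Dmr-PERK cells at 4 h of arsenite but to between 2.42% and 2.90% at 24 h, when SLC2A3 was highest. With the 2 genes' counts summed, the 4 h difference of SLC2A3 became 0.33 in Dmr-PERK cells and was called (adjusted p = 0.00013), and that in Parental cells became -0.14 and was not (adjusted p = 0.13), while the 24 h differences were 3.65 and 3.04. Over all 120 libraries the median was 1.80%, and listed copies of ENO1, PGK1, HK2 and LDHA each stayed under 0.183% of their gene or at it.

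HK2 and PFKFB4 rose more in Parental than in Dmr-PERK cells. HK2 reached 251.2, 256.4 and 250.6 CPM in Parental cells at 16 h, against 29.7, 29.9 and 26.8 untreated (3.13 ± 0.08), and 124.8, 121.8 and 129.4 CPM in Dmr-PERK cells, against 40.6, 47.8 and 47.3 (1.46 ± 0.09). PFKFB4 reached 63.7, 65.9 and 59.8 CPM in Parental and 37.3, 35.2 and 37.1 CPM in Dmr-PERK cells at 16 h. The interaction over 4 to 24 h was -0.86 ± 0.06 for HK2 and -0.84 ± 0.05 for PFKFB4 (edgeR adjusted p = 7.9e-23 and 3.3e-29). It was called for 9 of 10 genes, all but CA9, where 42.2% of all genes were, and was positive for SLC2A3 (0.30 ± 0.06) and LDHA (0.10 ± 0.02; 0.04, adjusted p = 0.27, without replicate 1 of every group). The interaction of PFKFB3 (-0.20 ± 0.04) was lost by limma on log2(TPM + 1) (-0.06, adjusted p = 0.55).

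PFKFB3 was high with arsenite early and again late in the Dmr-PERK line. In Dmr-PERK cells it was at 146.2, 137.5 and 163.0 CPM at 4 h, at 58.7, 57.2 and 55.5 CPM at 16 h and at 94.3, 88.5 and 99.5 CPM at 24 h, against 99.9, 97.1 and 91.1, then 51.8, 56.2 and 51.6, then 40.5, 42.7 and 41.0 CPM untreated. The 16 h groups differed by 0.10 ± 0.06, which did not pass, and the 24 h groups by 1.19 ± 0.06. At 8 h the difference was 0.55 and was called. In Parental cells PFKFB3 was called higher at all 5 times, with the widest difference at 8 h (1.24) and the narrowest at 16 h (0.36). PGK1 was higher by 0.24 ± 0.02 in Dmr-PERK and 0.50 ± 0.02 in Parental cells, and LDHA lower by -0.50 ± 0.02 and -0.60 ± 0.02.

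With arsenite, PDK1 was lower in Dmr-PERK cells (9.80, 10.5 and 12.7 against 17.1, 16.2 and 15.7 CPM at 16 h, a mean over 4 to 24 h of -0.35 ± 0.04). In Parental cells it was higher at 8 h (0.31 ± 0.08, adjusted p = 0.00078; not called by library totals alone, 0.16, adjusted p = 0.099, or by limma on log2(TPM + 1), adjusted p = 0.23) and not called at the other times. Its mean there did not pass by TMM (0.08 ± 0.04, adjusted p = 0.052), was called higher with RLE factors (0.20), by DESeq2 (0.20), by limma on log2(TPM + 1) (0.27), without replicate 2 of every group (0.13) and in a fit of only the groups compared (0.12), and was called lower by library totals alone (-0.10). CA9 stayed low until 8 h and then rose in both lines: its 3 wells summed to 68 counts at 16 h and 152 at 24 h in Dmr-PERK cells, against 13 and 21 untreated, and to 22 and 53 in Parental cells, against 7 and 5. At 24 h this was 1.47, 2.71 and 2.56 CPM in Dmr-PERK and 0.841, 0.589 and 1.92 CPM in Parental cells. The highest Parental value came from the library that stood apart. The effect of arsenite changed between 4 and 24 h for 8 genes in Dmr-PERK and all 10 in Parental cells, where 71.2% and 73.1% of all genes changed.

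Without the 2 libraries that stood apart the arsenite calls of all 10 genes over 4 to 24 h, their interactions and their calls at single times stayed on the same side of the threshold. In Parental cells at 24 h SLC2A3 went from 3.06 to 3.24, HK2 from 3.29 to 3.47, PFKFB3 from 0.97 to 1.09, LDHA from -0.94 to -1.01 and CA9 from 4.15 to 3.53 on the log2 scale. The interaction of SLC2A3 went from 0.30 to 0.26 and that of HK2 from -0.86 to -0.92. In Dmr-PERK cells at 4 h PFKFB3 went from 0.63 to 0.56 and PDK1, not called in either fit, from -0.10 to -0.02.

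**Figure D4:**
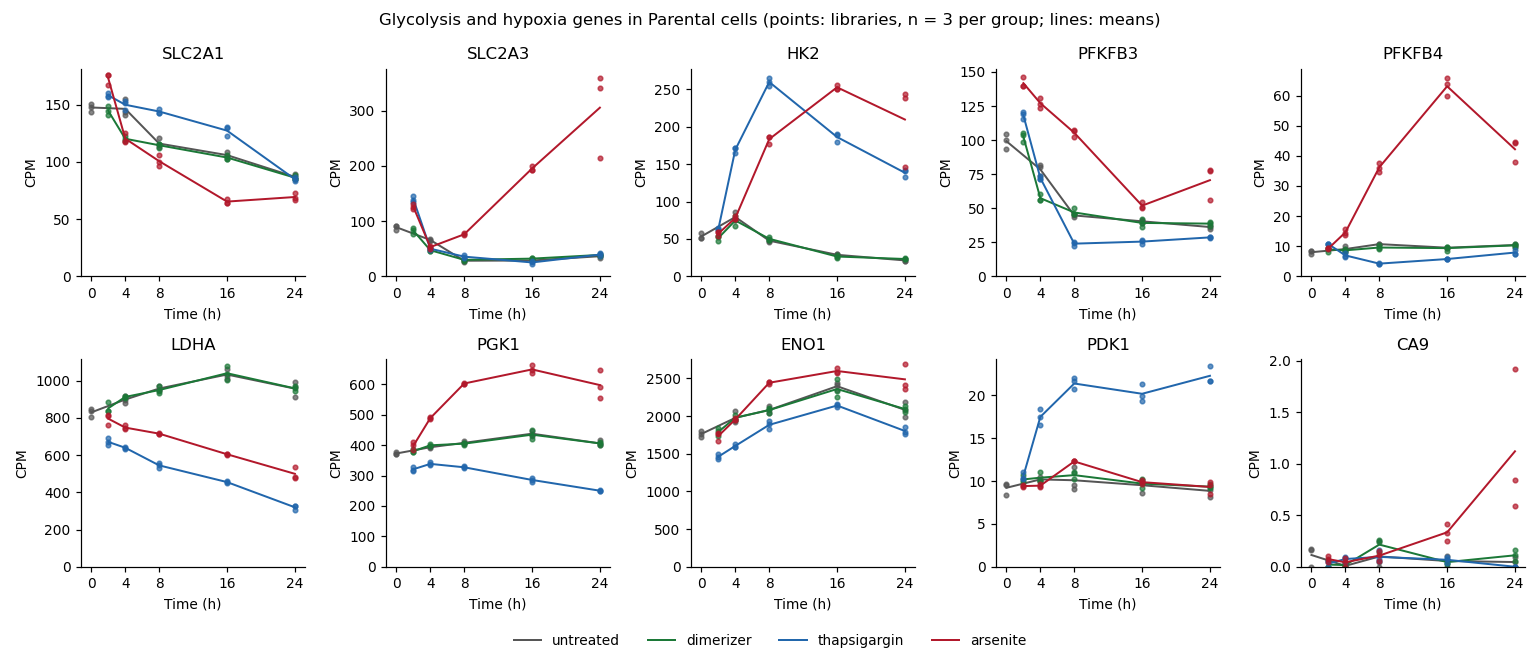
CPM (vertical axis, linear, from 0) of each gene in Parental cells against time in hours; points are single libraries, lines join group means of 3, and colours mark untreated wells and the 3 treatments. The dimerizer line follows the untreated line except at 4 h for SLC2A1, SLC2A3 and PFKFB3, and 1 arsenite library at 24 h lies below its replicates for SLC2A3 (215.3 CPM) and HK2 (146.6 CPM).

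The treatments were also set against each other directly over their 5 shared times, without the untreated wells. In Dmr-PERK cells dimerizer and thapsigargin differed for 9 of 10 genes, all but CA9, where 47.1% of all genes differed. The widest gaps were those of HK2 (-0.44 ± 0.04, lower with dimerizer) and LDHA (0.43 ± 0.01, higher with dimerizer), and the narrowest called gap was that of PDK1 (-0.09 ± 0.03), which lost its call without replicate 1 or 2 of every group (-0.08 and -0.09, adjusted p = 0.055 and 0.056), as did that of PFKFB4 without replicate 1 (-0.13, adjusted p = 0.081); limma on log2(TPM + 1) called neither. Against arsenite, dimerizer gave less SLC2A3 (-1.78 ± 0.04), PFKFB4 (-1.67 ± 0.04) and PGK1 (-0.62 ± 0.01) and more PDK1 (0.97 ± 0.03) and SLC2A1 (0.43 ± 0.02), and 9 of 10 genes differed, where 80.4% of all genes did. The small gap of ENO1 (-0.04 ± 0.01) was lost without the 2 libraries that stood apart (-0.02, adjusted p = 0.092) and was 0.11 by library totals alone, and that of LDHA (-0.15 ± 0.01) was 0.00 by library totals alone. HK2 was the exception (0.05 ± 0.04, edgeR adjusted p = 0.19), but it was called without the 2 libraries (0.07, adjusted p = 0.020), without the filter on low counts (0.08, adjusted p = 0.045), without replicate 3 of every group (0.12), by limma on log2(TPM + 1) (0.23) and by library totals alone (0.20). Its mean is taken over times at which its level with dimerizer was on both sides of that with arsenite (144.8 ± 1.61 against 94.1 ± 5.24 CPM at 4 h, 109.3 ± 4.51 against 145.3 ± 3.90 CPM at 24 h). Thapsigargin against arsenite called 10 of 10 genes in each line, where 80.8% of all genes differed in Dmr-PERK and 79.2% in Parental cells. In Parental cells it called 9 with RLE factors and 9 by DESeq2, where HK2 was lost (0.04 in each). Without replicate 3 of every group it also called 9 there, and CA9 was lost (-1.55, edgeR adjusted p = 0.051). PFKFB4 was the furthest apart in both lines (-1.54 ± 0.03 and -1.96 ± 0.04) but for CA9.

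Other genes of the same pathways were followed in lists, whose counts stand beside these shares of all genes called higher and lower: 27.5% and 27.7% with dimerizer in Dmr-PERK cells, 30.9% and 32.2% with thapsigargin in Dmr-PERK, 30.1% and 35.0% in Parental, 44.4% and 39.2% with arsenite in Dmr-PERK, 42.7% and 39.4% in Parental cells, and 30.3% and 32.2% between the untreated lines. Of 17 other glycolysis genes dimerizer raised 5 and lowered 10 in Dmr-PERK cells (median -0.20), among them PGAM1 (-0.64 ± 0.02), the enzyme between PGK1 and ENO1, the second enolase ENO2 (-0.74 ± 0.02) and the aldolase ALDOC (-1.43 ± 0.06). In Parental cells it called 0 of the 17, also by DESeq2, and 0 had an unadjusted p under 0.05 by edgeR. Few of all genes were called there, 0.326% higher and 0.256% lower. An unadjusted p under 0.05 by edgeR was found for 2464 of 26998 genes. Thapsigargin raised 3 and lowered 13 of them in Dmr-PERK cells (median -0.54) and raised 4 and lowered 12 in Parental cells (median -0.46), with PKM, the pyruvate kinase, down by 0.67 and 0.51. Arsenite raised 7 and lowered 9 in Dmr-PERK and raised 10 and lowered 6 in Parental cells by TMM, but by library totals alone it raised 3 and lowered 13, then 5 and 11, so the balance turns with the scaling. ENO2 rose with arsenite in Parental cells (0.70 ± 0.02). Untreated Dmr-PERK cells were higher in 12 of the 17 and lower in 2, with ENO2 at 0.75 ± 0.02.

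The 22 other hypoxia-induced genes did not move as a block with any treatment. Dimerizer raised 7 and lowered 13 in Dmr-PERK cells (median -0.15). DDIT4, an inhibitor of mTORC1 (3.32 ± 0.04), and VEGFA, the angiogenic growth factor (1.67 ± 0.02), rose, and the carbonic anhydrase CA12 fell (-1.63 ± 0.04). Thapsigargin raised 12 and lowered 7 in each line, with the same 3 genes ahead: in Parental cells DDIT4 changed by 2.50 ± 0.04, VEGFA by 2.00 ± 0.02 and CA12 by -3.20 ± 0.08. Arsenite raised 12 in each line and lowered 10 in Dmr-PERK and 9 in Parental cells; P4HA2, a collagen prolyl hydroxylase, rose by 1.24 ± 0.02 in Dmr-PERK and NDRG1 by 1.70 ± 0.03 in Parental cells. DDIT4 and VEGFA are also known to respond to ATF4. Untreated Dmr-PERK cells were higher in 14 of the 22 and lower in 5, with BNIP3, a mitophagy receptor, at 1.37 ± 0.03. With dimerizer in Parental cells 1 of the 22 was called, VEGFA (-0.14 ± 0.02), where 0.256% of all genes were called lower.

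**Figure D5:**
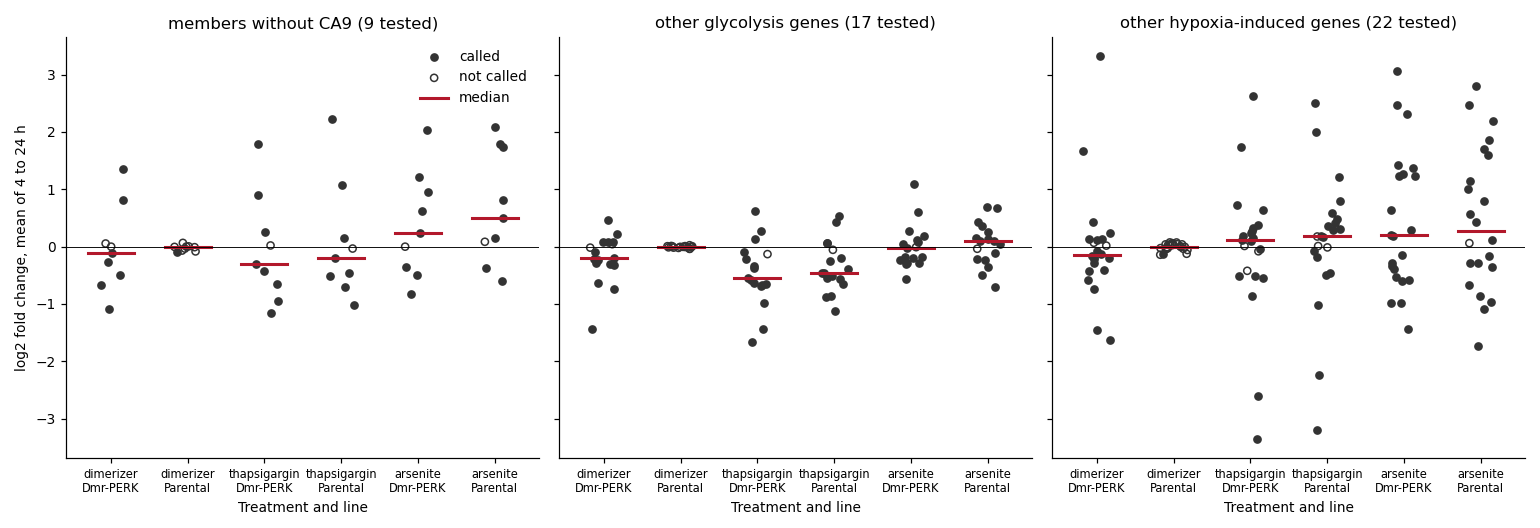
Log2 fold change against untreated wells, mean of 4 to 24 h (vertical axis), of each gene in 3 lists (panels) for each treatment and line (horizontal axis); filled points were called, open points were not, and red bars are medians. The medians of the other glycolysis genes lie at -0.20 with dimerizer in Dmr-PERK cells and at -0.54 and -0.46 with thapsigargin, while the hypoxia-induced genes spread to both sides of 0.

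Of the 8 genes of the HIF machinery, dimerizer raised 4 and lowered 1 in Dmr-PERK cells and called 0 in Parental cells, also by DESeq2 and with 0 at an unadjusted p under 0.05 by edgeR. Of all genes 0.326% were called higher and 0.256% lower with dimerizer in Parental cells. Thapsigargin raised 4 in each line and lowered 2 in Dmr-PERK and 4 in Parental cells, and arsenite raised 5 and lowered 3 in Dmr-PERK and raised 4 and lowered 3 in Parental cells by TMM (3 and 5 in each line by library totals alone). VHL, which marks HIF subunits for breakdown, rose with dimerizer in these cells (0.77 ± 0.02) and with thapsigargin (0.97 ± 0.02 in Dmr-PERK, 1.01 ± 0.02 in Parental cells) and arsenite (0.50 ± 0.02 and 0.68 ± 0.02) in both lines. EPAS1, which encodes HIF-2α, rose with dimerizer (0.67 ± 0.05) and arsenite (1.05 ± 0.05 and 1.55 ± 0.05), and HIF1A fell with arsenite in Dmr-PERK cells (-0.46 ± 0.03). HIF protein is set mainly after translation, so these RNA levels do not measure it. Of 10 genes of pyruvate import and use in mitochondria, dimerizer raised 3 and lowered 5 in Dmr-PERK cells. Thapsigargin raised 3 and lowered 4 of them there and raised 6 and lowered 4 in Parental cells. Arsenite raised 1 and lowered 7, then 2 and 6. The kinases PDK2 (-0.66 ± 0.04) and PDK3 (-0.94 ± 0.06) fell where PDK1 rose. MPC1, a subunit of the mitochondrial pyruvate carrier, rose with dimerizer (0.48 ± 0.03) and with thapsigargin in both lines (1.19 ± 0.03 and 1.62 ± 0.03). Of 4 glucose-responsive genes, dimerizer raised 3 in Dmr-PERK cells and thapsigargin 3 and 2, and arsenite raised 1 and lowered 2 in each line. TXNIP, which restrains glucose uptake, rose with dimerizer in Dmr-PERK cells (1.66 ± 0.05) and with thapsigargin (2.05 ± 0.05 and 3.36 ± 0.08) and fell with arsenite (-2.72 ± 0.09 and -2.17 ± 0.20).

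Across the 40 group means, each centred on its line, some of the 10 genes ran together and others against each other. These correlations describe points that share times and untreated drift. PFKFB4 and PGK1 ran together most closely (Pearson r = 0.85), SLC2A3 ran with PFKFB4 and with CA9 (0.70 each), and PDK1 ran against PGK1 (-0.72) and HK2 against LDHA (-0.71). Among the 12332 genes with a mean of at least 5 CPM the closest to LDHA was PKM (0.95), the closest to ENO1 was ALDOA (0.92), and the closest to SLC2A3 were CHMP1B, FOS and FOSB (0.94, 0.94 and 0.93). MED10 was closest to HK2 (0.94), MED8 to PDK1 (0.95), NAA38 and ACOT7 to PGK1 (0.95 each), CACNA1G to PFKFB4 (0.93), VPS37B to PFKFB3 (0.92), CACNB1 to SLC2A1 (0.90) and LARP7 to CA9 (0.85).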

How the data were processed

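RNA was sequenced from 120 libraries of U2OS cells in 40 groups of 3. The authors deposited estimated counts and TPM values (per length and scaled to a common total) per gene. The submitters' processing notes name Salmon 0.9.1, FastQC 0.11.5 and the build GRCh38, with no role stated for each. The libraries came from a strand-marking kit, per the labels' protocols; whether counting used strand was not given in the sources used here. Both tables hold the same 57665 genes, and all columns were matched to samples by name.

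Estimated counts were rounded to whole numbers. Genes with low counts were removed with edgeR's filterByExpr (minimum count 10), which left 26998; scaling was by TMM, with factors from 0.839 to 1.17. A quasi-likelihood model (edgeR 4.0.16, R 4.3.3) with 1 mean per group was fitted over all libraries, with Benjamini-Hochberg adjustment over all genes of a comparison; a gene is called below 0.05. Treatments were set against untreated wells of the same line and hour, and 2 h against untreated 0 h. F-tests covered changes over time. The fit and the comparison of dimerizer with untreated Dmr-PERK cells were tried on simulated counts. That simulation held no interaction, no F-test and no shift of most genes. Library totals span 1.29e+07 to 5.65e+07, so precision falls with level: CA9 has few counts and the abundant enzymes many.

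The 10 genes and the gene lists were chosen with earlier results of these data known. All 10 are named in every comparison; of each other list, the 3 with the smallest adjusted p were candidates for naming, and for each of the 10 the genes of mean at least 5 CPM that correlate most with it. Names outside this rule were chosen after their values were seen. Alternatives were DESeq2 1.42.0, RLE factors, no filter, limma 3.58.1 on log2(TPM + 1) and log2(TPM + 0.1), each replicate left out, a replicate term, fits of only the groups compared, summed near-identical copies and another control for 2 h; added after seeing the data were fits without the 2 libraries that stood apart and without scaling factors.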

Additional observations from a re-analysis of the deposited data

Results flagged for a closer look

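Effects that differ between the lines or over time by a test of the difference are given here as values. The effect of dimerizer in Dmr-PERK minus that in Parental cells, on the log2 scale, was positive for the hexokinase HK2 (1.36), PDK1 (0.74) and PFKFB3 (0.14). For PFKFB3 the mean effect was called in neither line by itself. It was negative for PFKFB4 (-1.03), LDHA (-0.67), PGK1 (-0.49) and SLC2A1 (-0.18). For thapsigargin the difference was positive for SLC2A3 (0.30) alone of the 8 genes called. The negative ones were HK2 (-0.43), PFKFB4 (-0.25), PGK1 (-0.19), PDK1 (-0.18), LDHA (-0.14), SLC2A1 (-0.12) and ENO1 (-0.09). For arsenite it was positive for SLC2A3 (0.30) and LDHA (0.10) and negative for HK2 (-0.86), PFKFB4 (-0.84), SLC2A1 (-0.44), PDK1 (-0.44), PGK1 (-0.26), PFKFB3 (-0.20) and ENO1 (-0.15). SLC2A3 had a more positive and HK2 a more negative effect in Dmr-PERK cells under both treatments; that of PFKFB4 was more negative too, but its thapsigargin value was -0.05 (adjusted p = 0.79) by limma on log2(TPM + 1). The CA9 spans rest on few counts.

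Effects that changed over time are given by their span, the highest minus the lowest log2 effect at 4, 8, 16 and 24 h. With dimerizer in Dmr-PERK cells HK2 spanned 1.49, PFKFB4 1.21, PFKFB3 0.78, LDHA 0.49, ENO1 0.45, PGK1 0.31, PDK1 0.30 and SLC2A1 0.28. In Parental cells the 3 genes that were lower at 4 h were the ones called, SLC2A3 (0.64), PFKFB3 (0.56) and SLC2A1 (0.27).

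Thapsigargin in Dmr-PERK cells gave spans of 1.66 for HK2, 1.25 for PFKFB4, 1.07 for LDHA, 0.86 for SLC2A3, 0.78 for PFKFB3, 0.47 for PGK1, 0.41 for SLC2A1 and 0.35 for ENO1. In Parental cells they were 1.60 for HK2, 1.09 for LDHA, 0.96 for PFKFB4, 0.79 for PFKFB3, 0.75 for SLC2A3, 0.55 for PDK1, 0.48 for PGK1, 0.35 for SLC2A1 and 0.16 for ENO1. PDK1 was called in Parental cells but not in Dmr-PERK cells, and the difference between those spans was not tested.

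Arsenite in Dmr-PERK cells gave the widest span for SLC2A3 (3.60), followed by CA9 (2.93), HK2 (2.52), PFKFB3 (1.09), PFKFB4 (0.74), SLC2A1 (0.63), PDK1 (0.48) and PGK1 (0.15). In Parental cells all 10 genes were called, CA9 at 3.62, SLC2A3 at 3.38, HK2 at 3.32, PFKFB4 at 2.05, PFKFB3 at 0.88, LDHA at 0.67, SLC2A1 at 0.50, PDK1 at 0.41, ENO1 at 0.27 and PGK1 at 0.25. In untreated cells the line difference itself changed over the 5 times, with a span of 0.73 for SLC2A3, 0.53 for HK2, 0.43 for SLC2A1, 0.42 for PFKFB3 and 0.31 for PDK1.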

How the results depend on the processing

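The count of the 10 genes called in each comparison stayed within 1.5 times its value under every alternative run, with exceptions in 2 comparisons, dimerizer in Parental cells and the change of the untreated line difference. Dimerizer in Parental cells called 1 gene, and 0 by limma on log2(TPM + 1) and log2(TPM + 0.1) and between 0 and 1 with a replicate left out. The change of the untreated line difference over time called 5, but 3 and 3 by limma with the 2 pseudocounts and between 2 and 4 with a replicate left out; the cause was not tested. Of all genes, dimerizer in Parental cells called 157, against 337 by DESeq2, 94 without the filter, 28 and 14 by limma, 416 with only the groups compared in the fit, 384 without the 2 libraries that stood apart and from 4 without replicate 2. The line difference of thapsigargin called 6939 genes and 4581 without replicate 2. The change of the line difference called 4845 of all genes, against 2787 and 2370 by limma, 2716 without replicate 1 and 2429 without replicate 2. The change of the dimerizer effect in Parental cells called 1015, against 339 and 289 by limma, 365 and 257 without replicates 1 and 2, 1667 with only the groups compared and 1686 without the 2 libraries.

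Of 1741 values of single genes over times, 1667 stayed called in the same direction or stayed not called. Of the rest, 13 changed direction, 39 lost and 22 gained a call. At single times the numbers were 4168 of 4400, 28, 137 and 67. A change of direction was counted only where either fit called the value, so values called in neither fit could change sign uncounted. Leaving out a replicate gave such a change of direction for 0 of 420 and 0 of 1050 values and lost 16 and 40 calls. By limma on log2(TPM + 1) the direction of ENO1 with arsenite changed (Dmr-PERK -0.23 over 4 to 24 h, -0.28 at 16 h and -0.37 at 24 h; Parental -0.16, -0.17 and -0.37), as did that of dimerizer against arsenite for ENO1 (0.17) and LDHA (0.038). PGK1 with arsenite at 24 h was at -0.078 in Dmr-PERK and -0.041 in Parental cells, PDK1 at 24 h in Dmr-PERK cells at 0.21, and SLC2A1 with thapsigargin in Dmr-PERK cells at 0.10 at 4 h and 0.16 at 2 h. With log2(TPM + 0.1) these were the same to 2 decimals, but for PDK1 (0.24) and SLC2A1 at 2 h, which kept its direction. TPM values sum to the same total in each library and have no further scaling. By library totals alone ENO1 with arsenite was at -0.19, -0.23 and -0.24 in Dmr-PERK and -0.038, -0.065 and -0.051 in Parental cells (4 to 24 h, 16 h and 24 h), PDK1 in Parental cells at -0.10 and -0.23 (24 h), PFKFB3 in Dmr-PERK cells at 16 h at -0.14, and dimerizer against arsenite at 0.11 for ENO1 and 0.001 for LDHA. With 4 h in place of 0 h as control of the 2 h wells, 41 in place of 28 tests were called. By the same rule 5 changed direction. They were SLC2A1 with arsenite in Dmr-PERK (-0.15) and SLC2A3 (0.33) and ENO1 (-0.14) with dimerizer in Parental cells. The others were HK2 with thapsigargin (-0.33) and arsenite (-0.48) in Parental cells.

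Replicate numbers did not pair the wells: of 72 correlations of same-numbered deviations 2 were over 0.1, with a median of 0.006. With the replicate block the counts of genes called were unchanged in every comparison (8 for dimerizer in Dmr-PERK cells, 9 for thapsigargin and 9 for arsenite, 235 tests at single times). DESeq2 was not run for the tests over time. Fits of only the groups compared gave no value for CA9 in comparisons where it did not pass the filter. With near-identical copies summed, SLC2A3 gained 3 calls and lost 1 at single times, and none of its means over times or of the other 4 genes' values changed call. Depth limits CA9, whose calls over times and at single times lapsed in part with a replicate left out, and 3 wells per group limit small differences.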
